A study of Mus musculus with 8 samples.

Results

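A set of 10 genes of bone morphogenetic protein (BMP) and activin signalling was followed in mouse corneas with and without excess TGF-beta, with every probe set taken that the platform annotation gives to 1 of their symbols alone. The 10 genes are Bmp4, Bmp7, Inhba, Fst, Bmpr1a, Bmpr2, Bambi, Id1, Id2 and Id3. They hold 23 probe sets, of 45037 that were tested, and 10 of the 18193 genes with a named probe set. The series has 8 Affymetrix arrays of corneal RNA. The TGFB group is 4 arrays of mice overexpressing TGF-beta, and the wildtype group is 4 arrays of their littermates. The labels give no isoform, promoter, expressing tissue, strain or age for either group, and they do not say whether 1 array holds 1 animal. The p-values below therefore rest on array-to-array spread that could be technical.

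BMPs and activins are secreted dimers of the TGF-beta family. They bring together type I and type II receptor kinases at the cell surface, and these phosphorylate SMAD proteins, with SMAD1, SMAD5 and SMAD9 on the BMP side and SMAD2 and SMAD3 on the activin and TGF-beta side. Follistatin (Fst) binds activin outside the cell and keeps it from its receptors, BAMBI is a receptor decoy without a kinase, and Id1, Id2 and Id3 are direct targets whose proteins lack a DNA-binding region and hold back basic helix-loop-helix factors. In the cornea BMPs act between epithelium and stroma, and TGF-beta can raise or lower Id genes depending on the cell.

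No member passed the test between the groups. Limma called 0 of the 23 member probe sets at adjusted p under 0.05, as it called 0% of all probe sets tested. In limma, 2 member probe sets, both of Fst, had higher TGFB means at an unadjusted p under 0.05, where 2.7% of all probe sets were higher, and 1 was lower, that of Id3, where 3.16% of all were lower. The groups did not overlap on 1 probe set with higher TGFB signals (Fst, against 1.47% of all) and on 1 with lower TGFB signals (Id3, against 1.81% of all). The median difference over the 23 probe sets was 0.041 on the log2 scale, beside 0.009 over all probe sets tested. Differences are TGFB minus wildtype in log2(signal + 16) with the standard error (SE) and the 95% interval of the limma fit, so the change of a dim gene is understated.

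The arrays differed in transcripts that mark other tissues, whose source was not tested. Krt12 and Kera, the defining transcripts of corneal epithelium and stroma, were present on every array. Krt12 had signals of 289 to 5766 and Kera of 2073 to 8110. Krt12 was lowest on TGFB 1 (289) and wildtype 4 (562), against 3008 or more elsewhere. Corneal epithelium genes were split, with higher TGFB means for 5 of 9 genes and list means of 9.43 to 10.26 against 8.99 to 10.27. Krt5, Krt14, Gjb2, Cdh1 and Epcam had higher TGFB means, and Krt12, Aldh3a1, Tkt and Pax6 lower ones. The groups did not overlap for Krt14 (4419 to 5045 in TGFB against 1274 to 3409), Gjb2 (299 to 637 against 77.1 to 209) and Epcam (799 to 1124 against 184 to 692). Nor did they for Tkt (1890 to 2532 against 2554 to 5914). Cornified epidermis genes were high on TGFB 1, TGFB 2 and wildtype 2 (list means of 11.45 to 12.59, against 6.24 to 7.20 elsewhere). Pigment, iris and ciliary body genes had lower means in TGFB corneas for 10 of 10 genes, with list means of 7.44 to 9.00 against 8.95 to 11.33 in wildtype. Keratocyte genes had lower means for 8 of 8, with list means of 11.03 to 11.75 against 11.58 to 12.23. Of these, Ogn, Col5a1 and Col5a2 were highest on wildtype 4, at 7921, 4727 and 9097. On the other wildtype arrays they lay at 3283 to 3919, 2559 to 2938 and 4549 to 4757. Their TGFB signals were 3319 to 5240, 2614 to 4004 and 4698 to 5533. Lens genes had lower means for 15 of 15 (list means of 5.12 to 9.78 against 5.60 to 10.69) and corneal endothelium genes for 5 of 5 (7.59 to 8.64 against 8.15 to 9.36). The part of the corneal epithelium, keratocyte, lens and endothelium lists in the results was not tested. Wildtype 4 had the highest Gapdh 3′/5′ signal ratio, 6.41 against 2.19 to 4.31. In such bulk RNA, fewer cells of a type and less RNA per cell cannot be told apart.

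The 3 promoters shown are of members that varied together or against each other over the arrays, Id3 with Bmp4 and Inhba against both. RefSeq's GRCm38.p6 table held a promoter for 6 of the 10 members: Bmp4, Bmpr1a, Bmpr2, Inhba, Id2 and Id3. Each line gives the 250 bases before the annotated start, 5′ to 3′ on the gene's strand, at chr4:136143572-136143821 (+) for Id3, chr14:46390670-46390919 (-) for Bmp4 and chr13:16011601-16011850 (+) for Inhba. Capitals mark matches on either strand to the motifs CAGAC (a SMAD site), GGCGCC (bound by SMAD1 and SMAD5), GGGCGG (SP1), the CCAAT box, the TATA box TATAAA and the E-box CANNTG, which basic helix-loop-helix factors bind.
Id3: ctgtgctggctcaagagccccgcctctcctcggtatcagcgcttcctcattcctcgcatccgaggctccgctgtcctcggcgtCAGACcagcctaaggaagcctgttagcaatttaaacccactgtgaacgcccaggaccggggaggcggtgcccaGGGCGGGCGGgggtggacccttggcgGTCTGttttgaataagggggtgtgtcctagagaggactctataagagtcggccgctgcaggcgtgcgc
Bmp4: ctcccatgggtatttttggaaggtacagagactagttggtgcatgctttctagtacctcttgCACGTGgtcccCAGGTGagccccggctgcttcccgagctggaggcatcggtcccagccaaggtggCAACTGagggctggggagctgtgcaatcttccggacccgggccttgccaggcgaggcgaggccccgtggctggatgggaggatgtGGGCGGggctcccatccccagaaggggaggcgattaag
Inhba: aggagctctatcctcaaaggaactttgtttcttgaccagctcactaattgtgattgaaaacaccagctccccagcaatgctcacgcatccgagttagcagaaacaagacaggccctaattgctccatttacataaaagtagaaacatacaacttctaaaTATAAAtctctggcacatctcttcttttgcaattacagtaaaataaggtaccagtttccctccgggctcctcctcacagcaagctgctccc
The Id3 window held 2 matches to CAGAC, which 42.2% of all 32851 promoter entries hold at least once in the same length, and 2 overlapping matches to GGGCGG, which 32.7% hold. The Bmp4 window held 3 E-boxes (66.2% of all entries hold 1 or more) and 1 GGGCGG. The Inhba window held 1 TATAAA, which 12.4% of all entries hold, and none of the other motifs. Its GC content was 43.2%, against 62.8% for Id3, 63.2% for Bmp4 and a median of 52.4% over all entries. GGCGCC was in none of these 3 windows and is held by 9.6% of all entries, and CCAAT, also in none of them, by 33.8%. Of the other Id promoter in the table, Id2, the window held 1 GGCGCC, 1 E-box, 1 GGGCGG and 3 CCAAT matches and no CAGAC. These matches describe letters and are no evidence of binding.

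**Figure D1:**
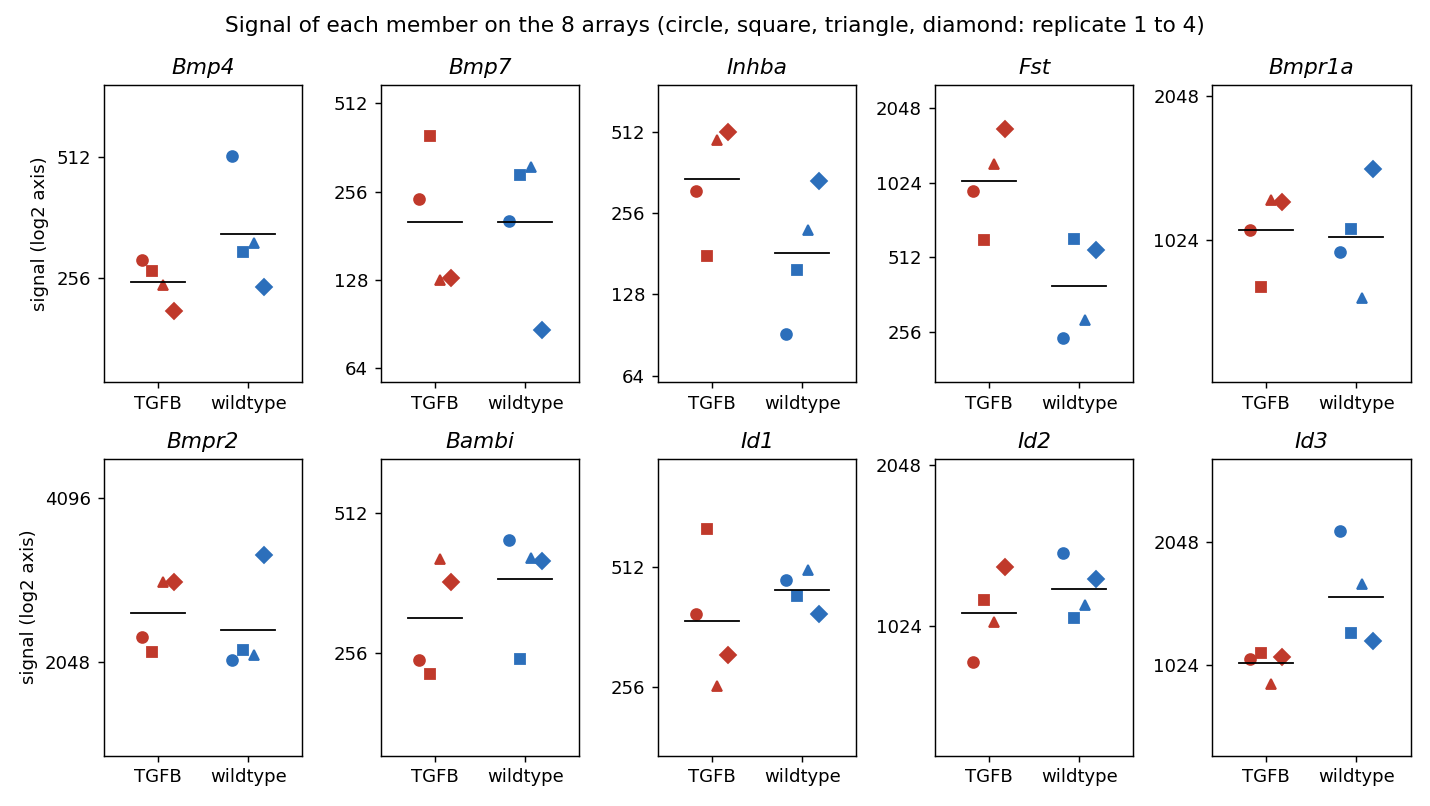
Signal of the probe set with the highest mean for each of the 10 members, on a log2 axis, with TGFB arrays in red and wildtype arrays in blue. Marker shapes stand for replicates 1 to 4, which pair no arrays, and each line is the group mean taken as log2(signal + 16) and turned back to a signal. The groups are parted for Id3 alone among these probe sets, with 925 to 1101 in TGFB and 1177 to 2182 in wildtype.

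Activin and its inhibitor came first by size of difference. Fst, the gene of follistatin, had signals of 952, 600, 1221 and 1689 on TGFB arrays 1 to 4 and of 242, 609, 287 and 548 on wildtype arrays 1 to 4 on its brighter probe set, 1434458_at. A single wildtype array, wildtype 2, lay above the lowest TGFB array, TGFB 2, and the others did not overlap. The log2 difference was 1.38 (SE 0.38, interval 0.53 to 2.22, limma adjusted p = 0.833), which is 2.6-fold.

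The other Fst probe set, 1421365_at, gave 270, 249, 381 and 407 in TGFB and 65.2, 160, 89.6 and 194 in wildtype corneas. Here every TGFB array lay above every wildtype array. Its difference was 1.33 (SE 0.31, interval 0.63 to 2.03, limma adjusted p = 0.822), or 2.52-fold. The 2 probe sets varied together over the 8 arrays (Pearson r = 0.97, as a description), and since they measure 1 transcript on the same arrays they are no separate evidence.

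Inhba, which encodes the chain of activin A, had signals of 308, 178, 477 and 509 in TGFB and of 91.0, 158, 222 and 336 in wildtype corneas. TGFB 3 and TGFB 4 were above all wildtype arrays, while TGFB 1 lay below wildtype 4 and TGFB 2 below wildtype 3 and wildtype 4. The difference was 0.85 (SE 0.41, interval -0.08 to 1.78, limma adjusted p = 0.867). With 1 array left out it ran from 0.55, without wildtype 1, to 1.14, without TGFB 2. Its other probe set, 1458291_at, stayed at signals of 5.72 or less on all arrays and gave 0.11 (SE 0.13). Inhba and Fst, ligand and inhibitor, were both highest on TGFB 4 and both lowest on wildtype 1, and their correlation over the 8 arrays was 0.83, a description over points that share 1 RNA sample each. Fst had r of -0.74 with the pigment list mean, -0.65 with skeletal muscle and -0.60 with blood vessel. For Inhba these were -0.59, -0.80 and -0.66, all as a description.

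Among the BMP ligands, Bmp4, a stromal and epithelial BMP, had signals of 283, 266, 245 and 211 in TGFB and of 517, 297, 313 and 243 in wildtype corneas. Wildtype 4 lay within the TGFB range and wildtype 1 stood highest. The difference was -0.37 (SE 0.22, interval -0.87 to 0.12, limma adjusted p = 0.894). Without wildtype 1, the array with the highest pigment, skeletal muscle and blood vessel list means, it was -0.17. Of the skeletal muscle genes, only Myh1 (3936), Myh2 (2980), Myh4 (331) and Casq1 (1248) were highest on wildtype 1. Others were not, such as Acta1 (7110), Ckm (3201) and Mylpf (6398), and Ttn (2502) was lowest there. Over the 8 arrays Bmp4 had r of 0.93 with the skeletal muscle list mean, 0.82 with blood vessel and 0.71 with pigment, as a description.

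Bmp7, an epithelial BMP needed for eye development, spread widely within both groups, with signals of 242, 395, 128 and 129 in TGFB and of 203, 292, 311 and 86.0 in wildtype corneas on 1435479_at. The group means were nearly equal, 7.76 ± 0.73 (SD, n = 4) against 7.77 ± 0.77 (SD, n = 4), a difference of -0.0057 (SE 0.44) whose sign these arrays do not settle. The 2 dimmer probe sets gave -0.17 (SE 0.50) and -0.057 (SE 0.36) and followed the brightest one over the arrays, with r of 0.94 and 0.84. The 3 lowest Bmp7 signals were on TGFB 3, TGFB 4 and wildtype 4, the 3 arrays with the highest signals on the brightest Bmpr2 probe set.

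The receptors differed little between the groups. Bmpr2, the type II BMP receptor, had signals of 2277, 2140, 2874 and 2867 in TGFB and of 2067, 2151, 2110 and 3225 in wildtype corneas. Wildtype 4 was the highest of all 8, and the other wildtype arrays lay close to TGFB 1 and TGFB 2. The difference was 0.10 (SE 0.19, interval -0.32 to 0.53; 0.25 without wildtype 4 and 0.038 without TGFB 3), and the 2 dimmer probe sets gave 0.041 (SE 0.17) and 0.18 (SE 0.23).

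Bmpr1a, a type I BMP receptor, had signals of 815 to 1245 in TGFB and of 774 to 1443 in wildtype corneas on its brightest probe set, with a difference of 0.049 (SE 0.22, interval -0.44 to 0.54). Of its 5 other probe sets, 4 gave 0.036 to 0.27 and 1, the dimmest with signals of 12.5 or less, gave -0.17 (SE 0.21). The largest of these, 0.27 (SE 0.20) on 1425494_s_at, came with TGFB signals of 314 to 376 inside the wildtype range of 195 to 385. Over all 9 BMP receptor probe sets the limma adjusted p was 0.912 or more.

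Bambi, the decoy receptor, had signals of 247, 230, 408 and 362 in TGFB and of 446, 248, 409 and 403 in wildtype corneas. Its 3 low arrays, at 230 to 248, were TGFB 1, TGFB 2 and wildtype 2, the same 3 on which cornified epidermis genes were high, and the other 5 lay at 362 to 446. The difference between the groups was -0.27 (SE 0.24, interval -0.81 to 0.28, limma adjusted p = 0.921). With 1 array left out it ran from -0.45, without wildtype 2, to -0.14, without TGFB 2. Without all 3 low arrays it was -0.12, with the cornified list mean as a covariate -0.06 and with the pigment list mean 0.15. Over the 8 arrays Bambi had r of -0.98 with the cornified list mean, 0.87 with that of corneal endothelium and 0.82 with that of lens, as a description.

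**Figure D2:**
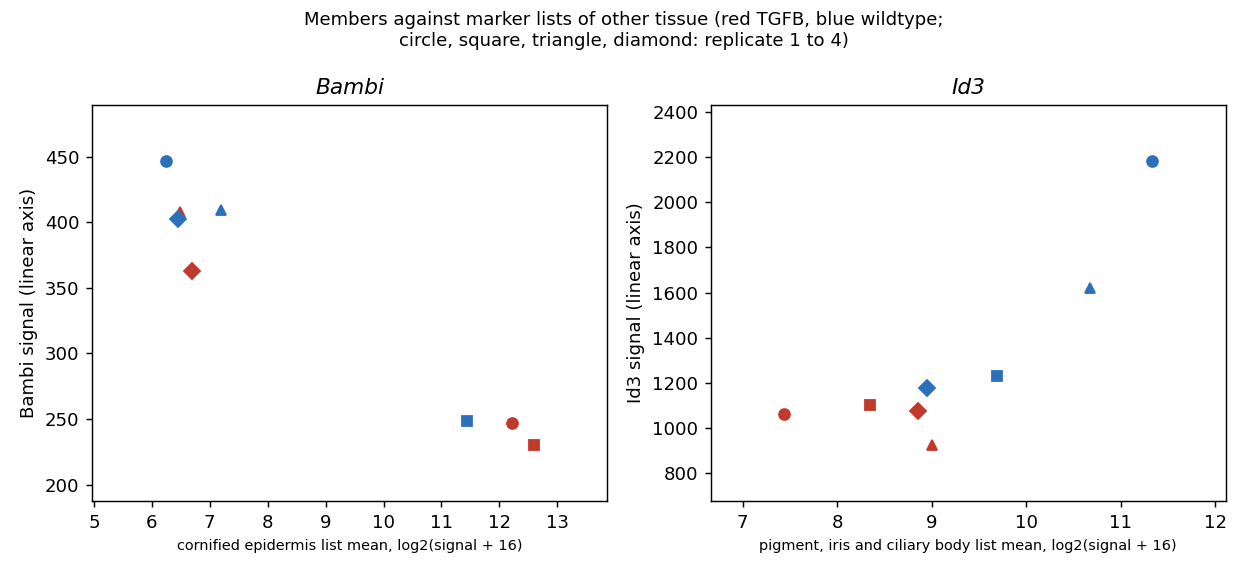
Bambi signal against the mean of 7 cornified epidermis genes (left) and Id3 signal against the mean of 10 pigment, iris and ciliary body genes (right), for 8 arrays with TGFB in red, wildtype in blue and shapes for replicates 1 to 4. The 3 arrays with cornified list means of 11.45 or more have Bambi at 230 to 248, and wildtype 1, with the highest pigment mean of 11.33, has the highest Id3 signal of 2182.

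Of the Id targets, Id3 had signals of 1060, 1101, 925 and 1076 in TGFB and of 2182, 1231, 1620 and 1177 in wildtype corneas. All TGFB arrays lay below all wildtype arrays, by a narrow margin between TGFB 2 and wildtype 4, and the TGFB arrays were much closer to each other (10.04 ± 0.11, SD, n = 4) than the wildtype arrays (10.57 ± 0.41, SD, n = 4). The difference was -0.53 (SE 0.20, interval -0.99 to -0.07, limma adjusted p = 0.837), which is 1.44-fold. Without wildtype 1 it was -0.35, and with the pigment mean as covariate -0.12. Over the 8 arrays Id3 had r of 0.86 with the pigment list mean, 0.74 with that of blood vessel and 0.72 with that of skeletal muscle. It had r of 0.69 with corneal endothelium and 0.46 with lens, all as a description.

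Id1 had signals of 390, 641, 258 and 308 in TGFB and of 475, 434, 503 and 391 in wildtype corneas. TGFB 2 was the highest of all 8 arrays and the other 3 TGFB arrays lay below every wildtype array, though TGFB 1 (390) and wildtype 4 (391) nearly met. The difference was -0.25 (SE 0.25, interval -0.82 to 0.33, limma adjusted p = 0.927), and without TGFB 2 it was -0.49 and without TGFB 3 -0.073. Without the 3 arrays of high cornified epidermis genes, where TGFB 3 and TGFB 4 faced 3 wildtype arrays, it was -0.66 (SE 0.21, limma adjusted p = 0.987).

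Id2 had signals of 878, 1145, 1042 and 1320 in TGFB and of 1406, 1059, 1120 and 1252 in wildtype corneas, which overlap over most of their range. Its difference was -0.15 (SE 0.16, interval -0.52 to 0.23), and -0.24 to -0.046 with 1 array left out. The probe set 1422537_a_at gave -0.071 (SE 0.17), while 1453596_at, with signals of 23.8 or less, gave 0.33 (SE 0.16), so the Id2 probe sets disagree in sign and the dim one carries the positive value. The 3 Id genes thus had negative differences on their brightest probe sets, with only the Id3 interval on 1 side of 0.

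**Figure D3:**
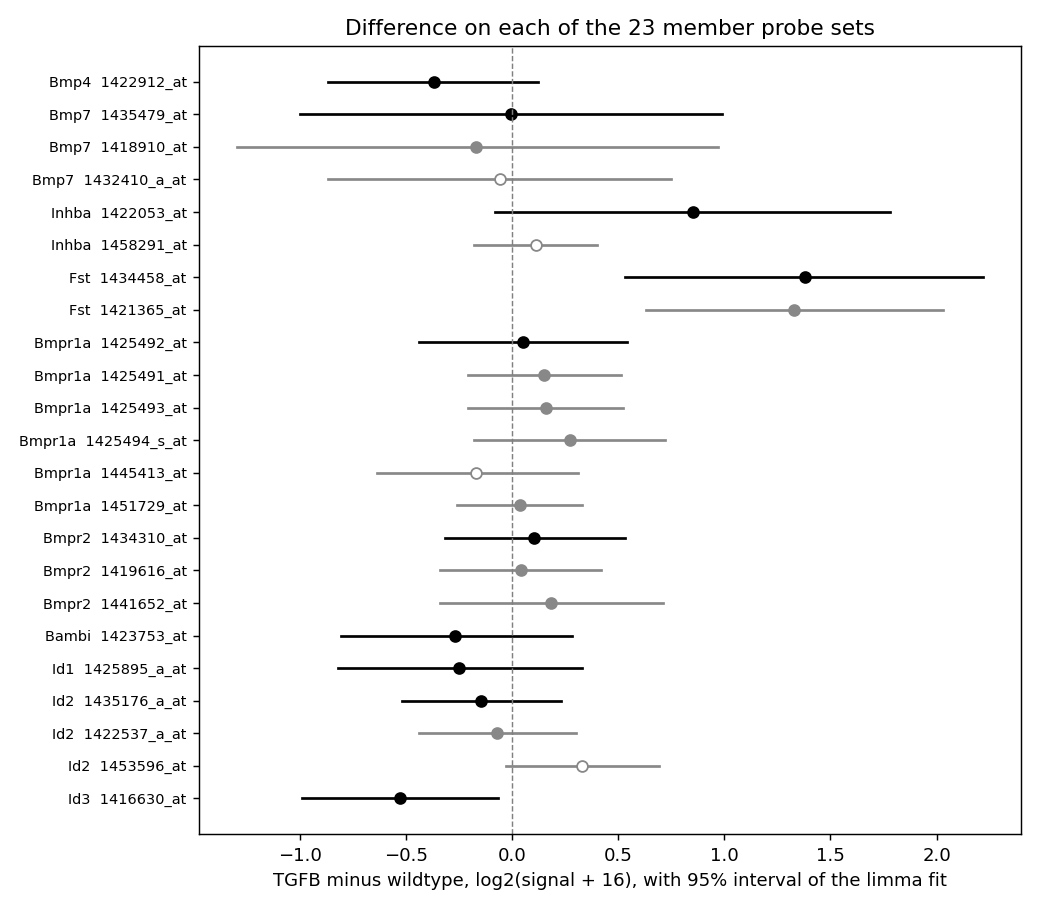
TGFB minus wildtype difference in log2(signal + 16) on the horizontal axis for each of the 23 member probe sets, with the 95% interval of the limma fit over 8 arrays. Black marks the probe set with the highest mean of a gene, grey the others, and open circles those among the dimmest 40% of all probe sets. The intervals of both Fst probe sets (0.53 to 2.22 and 0.63 to 2.03) and of Id3 (-0.99 to -0.07) lie on 1 side of 0, and no adjusted p is below 0.822.

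Seen over the 8 arrays rather than by group, the members fell in opposed sets. Fst and Inhba varied together (r = 0.83) and against Id3 (r = -0.87 and -0.78), Bmp4 (-0.80 and -0.87) and Id1 (-0.70 and -0.76), while Id3 and Bmp4 varied together (0.89). Bmpr1a and Bmpr2 varied together (0.87) and against Bmp7 (-0.90 and -0.91). Bmp7 and Id1 had r = 0.75. Id2 had no r above 0.59 or below -0.33 with another member. Each r is of the brightest probe sets, which the other probe sets of a gene did not all follow. With the brightest one, the others had r of -0.11 and 0.90 for Bmpr2 and of -0.55 and 0.03 for Id2. For Bmpr1a they had r of 0.69, 0.66, 0.13, -0.35 and -0.90, the last on a probe set with signals of 12.5 or less. These values are descriptions over 8 points that share the group difference, the levels of other tissues' transcripts and the scaling of each array. Wildtype 1 had the lowest Fst and Inhba and the highest Id3 and Bmp4, and it also had the highest pigment list mean (11.33) and skeletal muscle list mean (11.37). Of the skeletal muscle genes, only Myh1, Myh2, Myh4 and Casq1 were highest on that array.

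The genes most like a member were found by correlation over the same 8 arrays among genes above the dimmest 40% of probe sets. For Fst they were Srsf3 (r = 0.968), Dcaf10 (0.967) and Atp13a3 (0.952). For Inhba they were Ice1 (0.981), Wsb1 (0.981) and Chaserr (0.979), for Id3 Hsdl1 (0.984), Slc6a17 (0.971) and Stx18 (0.969), and for Id1 Prr14l (0.963), Slc35e1 (0.960) and Tm9sf4 (0.956). For Id2 they were Tram1 (0.935), Cr1l (0.921) and Sec22a (0.920), and for Bambi St6galnac3 (0.991), Egfl7 (0.981) and Atp5md (0.973). No other member was among the 3 genes nearest to any of these. These r values are the highest picked from many genes over only 8 arrays, so they are descriptions with no test behind them.

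**Figure D4:**
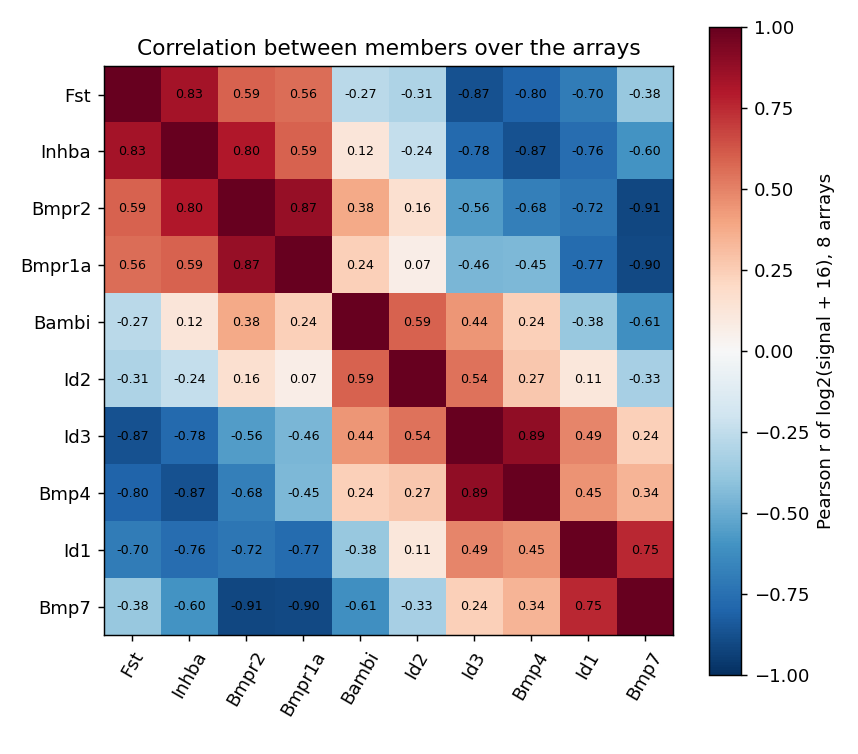
Pearson correlation of log2(signal + 16) over the 8 arrays between the brightest probe sets of the 10 members, from -1 (blue) to 1 (red), with the value in each cell. Fst and Inhba (0.83) stand against Id3 and Bmp4 (0.89 between them), and Bmp7 stands against Bmpr1a and Bmpr2 (-0.90 and -0.91).

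The other genes of the pathway comprised 80 genes in 5 lists by role, of which 73 were measured. Limma called 0 of them at adjusted p under 0.05, while 2 were higher (Fstl3 and Smad2) and 1 lower (Gdf9) at an unadjusted p under 0.05 on the probe set that stands for the gene, where 2.69% of all genes were higher and 4.54% lower. The groups did not overlap for 2 higher genes, Fstl3 and Smurf1 (1.49% of all genes), and for 1 lower gene, Gdf9 (2.45% of all). Of the 73, 49 (67.1%) had a difference above 0, with a median of 0.071, beside 47.4% and a median of -0.014 over all 18193 genes. With the pigment mean as covariate 33 of 73 were above 0, with a median of -0.02.

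Fstl3, a follistatin-like inhibitor of activin, had signals of 63.9, 67.6, 102 and 116 in TGFB and of 49.8, 42.0, 33.9 and 61.1 in wildtype corneas. All TGFB arrays were above all wildtype arrays, closest between TGFB 1 and wildtype 4. The difference was 0.71 (SE 0.21, limma adjusted p = 0.834). The related secreted protein gene Fstl1 was bright and differed by -0.04 (SE 0.22). Of the 15 extracellular inhibitors measured, 7 had a difference above 0, and this count was 8 with quantile normalization and 4, with a median of -0.14, with the pigment mean as covariate. Among the BMP inhibitors, Nog (noggin) was dim, at signals of 20.4 or less, with a difference of -0.43 (SE 0.26), and Grem1 (gremlin) had signals of 40.9 to 262 in TGFB and 105 to 296 in wildtype corneas and a difference of -0.44 (SE 0.48). The Grem1 difference was -0.0087 without TGFB 2, -0.77 without TGFB 4 and 0.15 without the 3 arrays of high cornified epidermis genes.

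Of 18 other ligands measured, 12 had a difference above 0, and the median was 0.10. With the pigment mean as covariate 6 of the 18 were above 0 and the median was -0.13. Gdf9, known as an oocyte growth factor, was dim, with signals of 20.5 to 35.3 in TGFB and 39.1 to 55.3 in wildtype corneas and a difference of -0.45 (SE 0.16, limma adjusted p = 0.837). Of 12 other receptors, 7 had a difference above 0 and none had an unadjusted p under 0.05 on the probe set that stands for the gene. For Acvr2a that probe set gave 0.08 (SE 0.18), while a dimmer one gave 0.49 (SE 0.20, limma unadjusted p = 0.0343).

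Of 15 SMADs and SMAD regulators, 10 had a difference above 0, and 7 did with median centring. Smad2, which carries activin and TGF-beta signals, had signals of 335, 238, 316 and 280 in TGFB and of 238, 248, 212 and 147 in wildtype corneas. The groups met where TGFB 2 lay just below wildtype 2. Its difference was 0.45 (SE 0.19, limma adjusted p = 0.84), and a second Smad2 probe set gave 0.15 (SE 0.25). Smad3 was at -0.22 (SE 0.34), with 0.10 (SE 0.12) and -0.31 (SE 0.14) on dimmer probe sets. Of the BMP SMADs, Smad1 was at 0.36 (SE 0.17, limma adjusted p = 0.861). Its dimmer probe sets gave 0.57 (SE 0.24) and 0.43 (SE 0.22). Smad5 was at 0.017 (SE 0.14), with 0.03 (SE 0.26) and 0.38 (SE 0.16) on dimmer probe sets, and the dim Smad9 at 0.017 (SE 0.20). Smurf1, a ubiquitin ligase that marks BMP SMADs for breakdown, had 120 to 169 in TGFB and 84.4 to 119 in wildtype corneas, a difference of 0.32 (SE 0.16). Of the inhibitory SMADs, Smad6, which acts mainly on BMP signals, was at -0.36 (SE 0.29) and Smad7 at 0.29 (SE 0.25). With 1 array left out Smad6 ran from -0.60 to -0.16 and Smad7 from 0.13 to 0.45, and with the pigment mean as covariate both were above 0 (0.10 and 0.17). The difference between these 2 genes was not tested. All 13 measured targets and helix-loop-helix partners had a difference above 0 on the probe set that stands for the gene, where 47.4% of all genes did. The median was 0.13, and all 13 were also above 0 under quantile normalization and median centring. The count was 10 of 13 without wildtype 4, 10 of 13 without the 3 arrays of high cornified epidermis genes and 7 of 13 with the pigment mean as covariate. None had an unadjusted p under 0.05 in limma with all arrays. Atoh8 (0.05, SE 0.12) was dim, at signals of 4.14 to 7.03. Dimmer probe sets of Hamp (-0.14, SE 0.16) and Tcf3 (-0.03, SE 0.18) were below 0. Id4, the remaining Id gene, was in this list at 0.64 (SE 0.45), with signals of 187 to 473 in TGFB and 74.8 to 328 in wildtype corneas.

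Leaving out wildtype 4, the array with the highest Gapdh ratio, raised the number of member probe sets at an unadjusted p under 0.05 from 3 to 7. Of these, 5 were higher, where 5.88% of all probe sets were, and 2 were lower, where 5.78% of all were. They were both Fst probe sets (1.53 and 1.55), Inhba (1.12, SE 0.39), 1 probe set each of Bmpr1a (0.42) and Id2 (0.41, the dim one), Id3 (-0.65, SE 0.20) and Bmp4 (-0.51, SE 0.21). None of the 7 passed at adjusted p under 0.05, as 0.00444% of all probe sets did, and the smallest adjusted p was 0.171, for Fst. With the pigment mean as covariate 0 of the 23 had an unadjusted p under 0.05 in limma, where 3.63% of all probe sets did, and the differences were 0.93 and 0.80 for Fst, 0.44 for Inhba and -0.017 for Bmp4. The pigment list mean has a TGFB minus wildtype difference of -1.75 of its own, so in 8 arrays this covariate shares much of the group's variation.

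**Figure D5:**
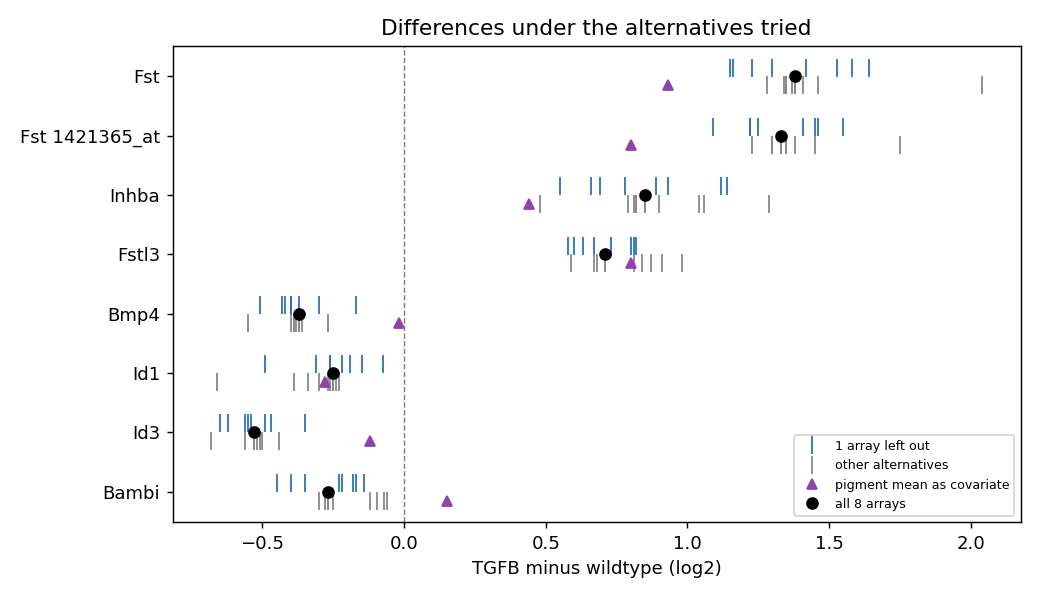
TGFB minus wildtype difference (log2) of 7 member probe sets and of Fstl3 with all 8 arrays (black), with 1 array left out (blue), with the pigment mean as covariate (purple) and under the other alternatives (grey). Fst stays between 0.93 and 2.04 on its brighter probe set, and Id3 between -0.68 and -0.12.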

How the data were processed

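RNA of 8 corneal samples was measured on one-colour Affymetrix arrays. The authors deposited 1 linear intensity per probe set, by a tool not given in the sources used here. As deposited, the intensities have a 2% trimmed mean of 150 on every array, so no further normalization was applied. Detection calls were not used here, and the number of arrays limits the precision. Groups come from the labels' descriptions, and replicates are numbered in record order, so the numbers pair no arrays.

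The 64 control probe sets were left out. Values were taken as log2(signal + 16) and fitted with limma 3.58.1 in R 4.3.3 (lmFit, eBayes without a trend) over 45037 probe sets, with Benjamini-Hochberg adjustment over all of them. A platform annotation of 2016 gave 1 symbol to 34958 probe sets, several to 932 and none here to 9211. The probe set with the highest mean stands for a gene where 1 value is given, and current symbols come from a RefSeq table of GRCm38.p6 by Entrez ID. All 10 members and their probe sets are named whatever their values. Of the other pathway genes, those with an unadjusted p under 0.05 or groups that do not overlap are named, with Smad6, Smad7, Nog and Grem1. Fstl1, Id4, Acvr2a, Smad1, Smad3, Smad5, Smad9, Hamp, Tcf3 and Atoh8 were added after their values were seen. The members and all lists were chosen with earlier results of these data known. The fit was tested on simulated data. There were 22 alternatives: other offsets, scaling, filters, units and variance models, arrays left out, and covariates.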

Additional observations from a re-analysis of the deposited data

Results flagged for a closer look

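Of 46 groups of 4 arrays, 2 for each member probe set, 2 held an array that stood apart from its group by Dixon's ratio at the 95% level, and chance gives about 1 in 20 groups. On 1425493_at of Bmpr1a, wildtype 1 had a signal of 207 against 138 to 144 on the other wildtype arrays. On 1434310_at of Bmpr2, wildtype 4 had a signal of 3225 against 2070 to 2150 on the other wildtype arrays.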

How the results depend on the processing

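No member probe set and no other pathway gene passed at adjusted p under 0.05 in limma under any of the 22 alternatives. The number of member probe sets at an unadjusted p under 0.05 was 3 with all arrays, where 5.86% of all probe sets were. It ran from 2 to 7 with 1 array left out (7 without wildtype 4, where 11.7% of all were). It was 5 with array weights (9.86% of all), 5 without wildtype 1 and wildtype 4 (8.21%) and 0 with the pigment mean as covariate (3.63%). For the other pathway genes it was 3 with all arrays (7.23% of all genes) and ran from 1 without wildtype 3 (5.07%) to 6 without wildtype 2 (6.87%) or wildtype 4 (12.9%). It was 7 with array weights (11.3%), 6 without TGFB 1, TGFB 2 and wildtype 2 (5.39%), 6 without wildtype 1 and wildtype 4 (9.73%), and 5 with the cornified epidermis mean as covariate (7.95%). Fst, Inhba, Bmp4, Id1 and Id3 kept their sign under every alternative. With the pigment mean as covariate the sign turned for Bmp7 (0.17), Bmpr1a (-0.20), Bmpr2 (-0.058), Id2 (0.073), Bambi (0.15) and Smad6 (0.10). Id2 was 0.037 as the mean of its probe sets, which gives the dim probe set equal weight, and Grem1 was 0.15 without TGFB 1, TGFB 2 and wildtype 2. With 1 array left out Bmp7 ran from -0.37 to 0.19 and Bmpr1a from -0.09 to 0.20. The causes were not tested. Signals near the low end of the arrays (Inhba 1458291_at, Bmpr1a 1445413_at, Nog) set a limit on what can be seen of those probe sets. No paired analysis was possible because the labels give the groups no shared replicate numbers.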

Other observations

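Some genes of the same pathway varied widely over the arrays. They were picked once their values were known, so their values are given as descriptions. Sostdc1, a secreted inhibitor of BMP and WNT signals, had signals of 669, 1124, 77.1 and 82.2 on the TGFB arrays and of 771, 683, 584 and 54.3 on the wildtype arrays. Its 3 low arrays were TGFB 3, TGFB 4 and wildtype 4, the same 3 on which Bmp7 was lowest. Gata3, a transcription factor of epidermis and hair follicle, had 132, 216, 6.04 and 21.7 against 4.84, 55.7, 2.38 and 10.6, and was highest on the 3 arrays with high cornified epidermis genes. Gdf10, a BMP-like ligand, was highest on wildtype 2 (888) and TGFB 1 (830) and lay at 163 to 325 on the other 6 arrays. Bmp5 was highest on TGFB 2 (301) and TGFB 1 (182) and lay at 51.9 to 114 elsewhere. The difference between the groups was -0.42 (SE 1.02) for Sostdc1, 1.32 (SE 0.75) for Gata3, -0.33 (SE 0.54) for Gdf10 and 0.58 (SE 0.45) for Bmp5, with limma adjusted p of 0.888 or more for each.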
